A study of Homo sapiens with 6 samples.

Results

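Noncoding host RNAs carry small nucleolar RNAs (snoRNAs) in their introns, and 10 of them are described here: GAS5, SNHG1, SNHG5, SNHG6, SNHG8, SNHG12, SNHG15, SNHG16, ZFAS1 and EPB41L4A-AS1. The rule that chose them used gene symbols and no measured values, though earlier results of these data were known. They are 10 of the 58051 genes in the count table. RNA was sequenced from HEK293T, a kidney-derived human embryonic cell line with the SV40 T antigen, after transient transfection with empty pcDNA3.1- or with pcDNA3.1-ppk1, which carries the gene of a bacterial polyphosphate kinase. Cells of both groups were grown for 48 h after transfection and then harvested, and each group has 3 libraries, lettered B, C and D. Libraries that share a letter are biological replicates matched across the groups, as the series states. Both groups are one cell line, the share of cells that took up plasmid is not given in the sources used here, and the protocol shared by all libraries also mentions an HA-tagged ppk1 plasmid and a range of plasmid amounts. The RNA was selected for poly(A) tails, so spliced and polyadenylated host transcripts were measured, and mature snoRNAs, which lack such tails, mostly were not.

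A snoRNA host gene is transcribed as a long precursor. Splicing removes the introns, from which the snoRNAs are trimmed, and joins the exons into the host RNA whose level was counted here. C/D box snoRNAs guide methylation of the ribose in ribosomal RNA, and H/ACA box snoRNAs guide the conversion of uridine to pseudouridine. Many noncoding hosts start with a terminal oligopyrimidine (TOP) tract, a C followed by further pyrimidines, as the mRNAs of ribosomal proteins do. TOP transcripts are recruited to ribosomes according to growth signals through mTOR and the RNA-binding protein LARP1. The spliced hosts hold only short open reading frames, so translating them exposes them to nonsense-mediated decay, and the level of hosts such as GAS5 is known to go up when translation or decay is blocked.

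The start sites are shown first because the TOP tract is the feature by which these hosts are grouped. RefSeq promoter sequences on GRCh38.p14 were searched for 8 of the 10 genes. SNHG6 was left out of this search, and SNHG15 had no entry. Each line gives 10 bases before the annotated start and 20 bases from it on the strand of the gene, and capitals mark a C followed by at least 4 pyrimidines that begins within 5 bases of the start.
SNHG5, chr6:85678714-85678743, minus strand: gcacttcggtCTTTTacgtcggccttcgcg
SNHG12, chr1:28581854-28581883, minus strand: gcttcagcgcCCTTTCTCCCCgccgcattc
ZFAS1, chr20:49278632-49278661, plus strand: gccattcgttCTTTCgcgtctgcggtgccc
SNHG8, chr4:118278752-118278781, plus strand: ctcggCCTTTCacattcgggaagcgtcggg
SNHG16, chr17:76557754-76557783, plus strand: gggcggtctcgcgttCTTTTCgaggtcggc
SNHG1, chr11:62855866-62855895, minus strand: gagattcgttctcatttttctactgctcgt
GAS5, chr1:173869026-173869055, minus strand: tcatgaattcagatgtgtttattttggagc
EPB41L4A-AS1, chr5:112160516-112160545, plus strand: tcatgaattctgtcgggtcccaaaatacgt

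The tract began exactly at the RefSeq start in SNHG5, SNHG12 and ZFAS1, which is 3 of 8 (37.5%) against 4.07% of 35116 RefSeq starts searched in the same way on the strand of the gene. It began within 5 bases in SNHG8 and SNHG16 as well, giving 5 of 8 (62.5%) against 21.1% of all starts. In SNHG12 it was the longest of these, running on as CCTTTCTCCCC. Annotated starts vary by isoform: the RefSeq start of GAS5 lies 163 bases from the nearest start in GENCODE release 29, and 6 of its 29 GENCODE transcripts begin with a tract of their own, shown here for comparison.
GAS5, most frequent GENCODE tract, chr1:173867960-173867989, minus strand: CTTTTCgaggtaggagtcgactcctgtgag
Over the GENCODE transcripts of all 10 genes, 23 of 136 (16.9%) began with such a tract, against 2.41% of 206534 transcripts. Of the 10 genes, 8 had at least 1 such transcript, and SNHG15 and EPB41L4A-AS1 had none. The share was highest in SNHG6, at 3 of 5 transcripts. Which start the cells used was not measured, so TOP status rests on the annotation alone. Because the hosts were grouped as TOP genes, shares above those of all genes follow from the choice and describe the set only.

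The libraries held 40851783 to 67122986 counts. All 10 host genes passed the filter on low counts, as 19574 genes did in all. Mitochondrially encoded genes took 4.10% ± 0.09 (SD, n = 3) of the counts in the empty vector libraries and 5.10% ± 0.53 (SD, n = 3) with ppk1. All 9 HEK293 marker genes were tested. INA rose (log2 fold change 0.25, edgeR adjusted p 0.0295) and NEFL fell (-0.29, adjusted p 0.00793), but neither was called without the block (adjusted p 0.141 and 0.0776), and DESeq2 called 1 of the 9. Their summed level was 837 to 956 counts per 1e+06 counts of the library (CPM) with the empty vector and 806 to 846 CPM with ppk1. Among blood and endothelial markers, CD3E had 1 count over all 6 libraries, CDH5 had 2, PTPRC had 11 and VWF had 14. Of 7 fibroblast and liver markers 5 were tested, with a summed level of 20.4 to 25.2 CPM and 23.4 to 23.6 CPM. Most of this was COL1A1, with means of 18.5 CPM (empty vector) and 19.5 CPM (ppk1), while COL1A2 had 1 count in all. ALB fell from 0.63 to 0.24 CPM on average (edgeR adjusted p 0.00261, and 0.0285 without the block). DESeq2 called 0 of the 5, and 1 of them had no adjusted p there. The product of the transfected bacterial gene was not analysed here, so the group labels were not checked against it.

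The share of the transcriptome held by the spliced hosts differed between groups by less than the spread between libraries. The 10 genes held 0.141%, 0.136% and 0.164% of all counts in empty vector libraries B, C and D. They held 0.147%, 0.127% and 0.150% in ppk1 libraries B, C and D. The ppk1 values lie inside the range of the empty vector values except for library C, which is the lowest of the 6. The group means were 0.147% ± 0.0152 and 0.142% ± 0.0123 (SD, n = 3 each), and the mean difference within pairs was -0.00551 percentage points.

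Among the members, 1 rose and 1 fell with ppk1, and the other 8 did not pass the test. By the fitted log2 fold changes, SNHG12 rose by 19.4% and SNHG15 fell by 15.02%. The test was the quasi-likelihood test of edgeR with the replicate letter as a block, adjusted by Benjamini-Hochberg over all 19574 genes at 0.05. By the same test 4.04% of all tested genes were called higher and 5.04% were called lower, so a single member in each direction is near the background. Without the block, 0 of 10 members were called (edgeR), against 2.4% of all genes, with 1 member higher and 1 lower at an unadjusted p under 0.05. DESeq2 with the block called 1 member higher and 0 lower, with 1 lower at an unadjusted p under 0.05.

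**Figure D1:**
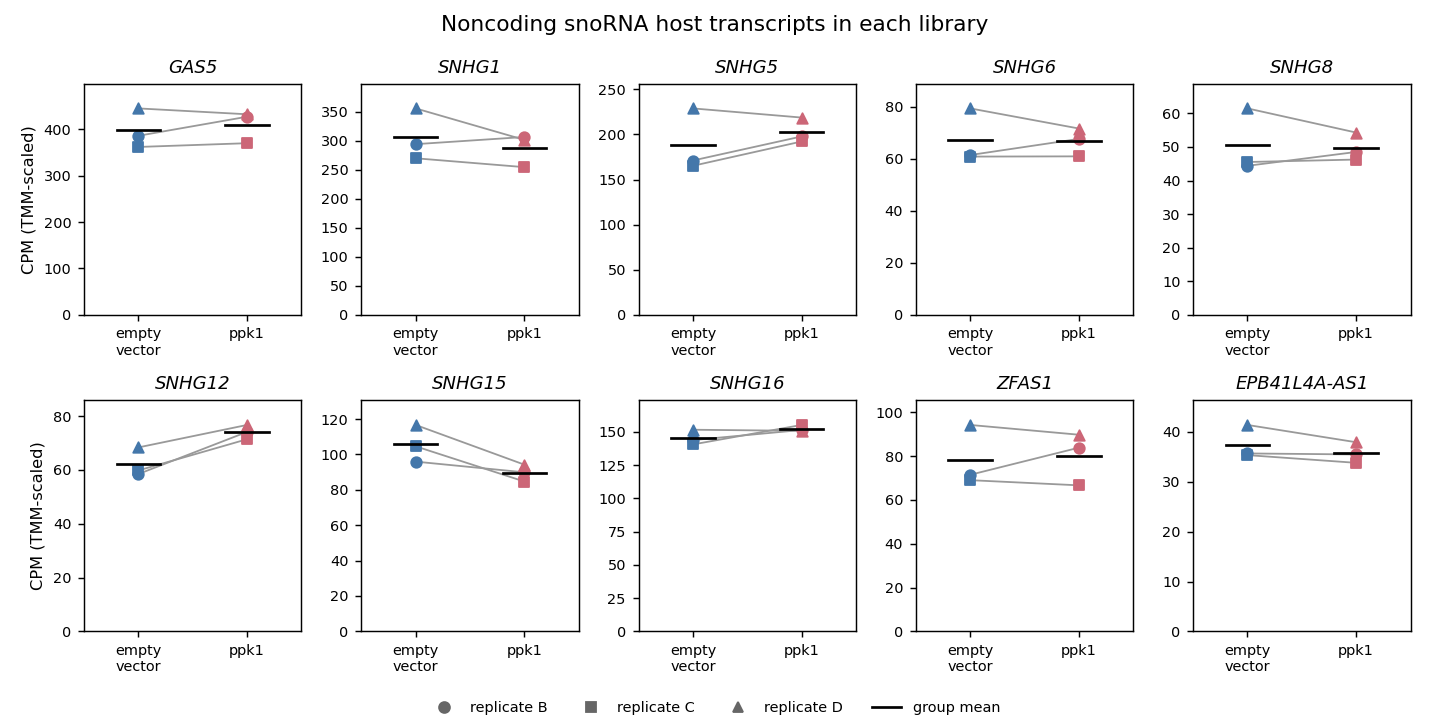
Level of each of the 10 host transcripts in CPM in every library, one panel per gene, with empty vector and ppk1 libraries side by side, a symbol for each letter, a thin line joining each pair and a bar at the group mean. In every panel empty vector library D is the highest of its group, and SNHG12 and SNHG15 are the panels whose groups are apart.

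SNHG12 carries both H/ACA snoRNAs (SNORA16A, SNORA44, SNORA61) and the C/D snoRNA SNORD99. Its level was 58.5, 59.8 and 68.4 CPM in empty vector libraries B, C and D, and 74.1, 71.4 and 76.7 CPM in ppk1 libraries B, C and D. All 3 ppk1 libraries were above all 3 empty vector libraries. The means were 62.2 ± 5.37 and 74.1 ± 2.65 CPM (SD, n = 3 each), and the fitted log2 fold change was 0.26 (SE 0.08, 95% interval 0.10 to 0.41), with an adjusted p of 0.0220 by edgeR. The change within pairs was 0.34, 0.26 and 0.17 on the log2 scale for B, C and D. The call was lost without the block (adjusted p 0.112), without pair B (0.107) and without pair C (0.401), while the log2 fold change stayed between 0.21 and 0.28 under all 12 alternatives.

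SNHG15, host of the H/ACA snoRNA SNORA9, went the other way. It measured 95.9, 104.6 and 116.6 CPM in empty vector libraries B, C and D, and 89.9, 84.7 and 94.2 CPM in ppk1 libraries B, C and D. Every ppk1 library lay below every empty vector library, although ppk1 D and empty vector B were only 94.2 and 95.9 CPM. The means were 105.7 ± 10.4 and 89.6 ± 4.77 CPM (SD, n = 3 each), and the log2 fold change was -0.23 (SE 0.08, 95% interval -0.39 to -0.08, edgeR adjusted p 0.0372). Within pairs it was -0.09, -0.30 and -0.31 for B, C and D. The call was lost without the block (adjusted p 0.153), without pair C (0.617), with DESeq2 (0.0569) and with no filter on low counts (0.0508), and the log2 fold change ranged from -0.31 to -0.20.

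These were the only members whose groups did not overlap, 1 higher and 1 lower. Of all tested genes 13% did not overlap with ppk1 higher and 12.6% with ppk1 lower.

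The 6 hosts that carry only C/D snoRNAs did not pass the test. GAS5, named for accumulating in growth-arrested cells and the host of the longest series of C/D snoRNAs among these genes, had 386.1, 362.0 and 445.2 CPM in empty vector libraries B, C and D and 427.2, 370.1 and 432.5 CPM with ppk1. Its ppk1 libraries all lie between the lowest and the highest empty vector library. The log2 fold change was 0.05 (SE 0.07, 95% interval -0.10 to 0.20, edgeR adjusted p 0.763).

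SNHG1, host of SNORD22 and SNORD25 to SNORD31, had 293.9, 269.6 and 355.4 CPM in the empty vector libraries and 306.2, 254.3 and 301.3 CPM with ppk1. The groups overlapped, with ppk1 higher in pair B and lower in pairs C and D. Its log2 fold change of -0.09 (SE 0.08) had a 95% interval of -0.24 to 0.06 (edgeR adjusted p 0.514).

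SNHG5, host of SNORD50A and SNORD50B, showed the largest value among the 8 without a call. It had 171.1, 165.3 and 228.9 CPM in the empty vector libraries and 197.8, 192.2 and 218.8 CPM with ppk1. Pairs B and C were higher with ppk1 by 0.21 and 0.22 on the log2 scale, and pair D was lower by 0.07. The fitted log2 fold change was 0.12 (SE 0.08, 95% interval -0.03 to 0.27, edgeR adjusted p 0.338).

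SNHG6, host of SNORD87, had 61.5, 60.9 and 79.4 CPM in empty vector libraries B, C and D and 67.7, 61.0 and 71.7 CPM with ppk1. The groups overlapped, and the log2 fold change was -0.00 (95% interval -0.16 to 0.15). SNHG16, host of the SNORD1 family, varied least among the empty vector libraries at 143.8, 140.5 and 151.6 CPM, and had 151.4, 155.1 and 150.7 CPM with ppk1. Its log2 fold change was 0.07 (SE 0.07, 95% interval -0.08 to 0.22). ZFAS1, transcribed antisense to the 5′ end of ZNFX1 and host of the SNORD12 family, had 71.5, 69.0 and 94.2 CPM in the empty vector libraries and 83.9, 66.7 and 89.8 CPM with ppk1. Pair B was higher with ppk1 by 0.23 on the log2 scale and the other pairs were lower, which left a fitted value of 0.04 (95% interval -0.12 to 0.19).

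The remaining hosts carry H/ACA snoRNAs. SNHG8, host of SNORA24, had 44.4, 45.5 and 61.5 CPM in the empty vector libraries and 48.5, 46.3 and 54.3 CPM with ppk1. EPB41L4A-AS1, host of SNORA13, had 35.7, 35.3 and 41.4 CPM in the empty vector libraries and 35.5, 33.8 and 37.9 CPM with ppk1. Both sets of groups overlapped. The log2 fold changes were -0.01 for SNHG8 (95% interval -0.16 to 0.15) and -0.07 for EPB41L4A-AS1 (95% interval -0.22 to 0.09). Over the 8 members without a call, the 95% intervals reached from 0.848-fold (SNHG1) to 1.21-fold (SNHG5).

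**Figure D2:**
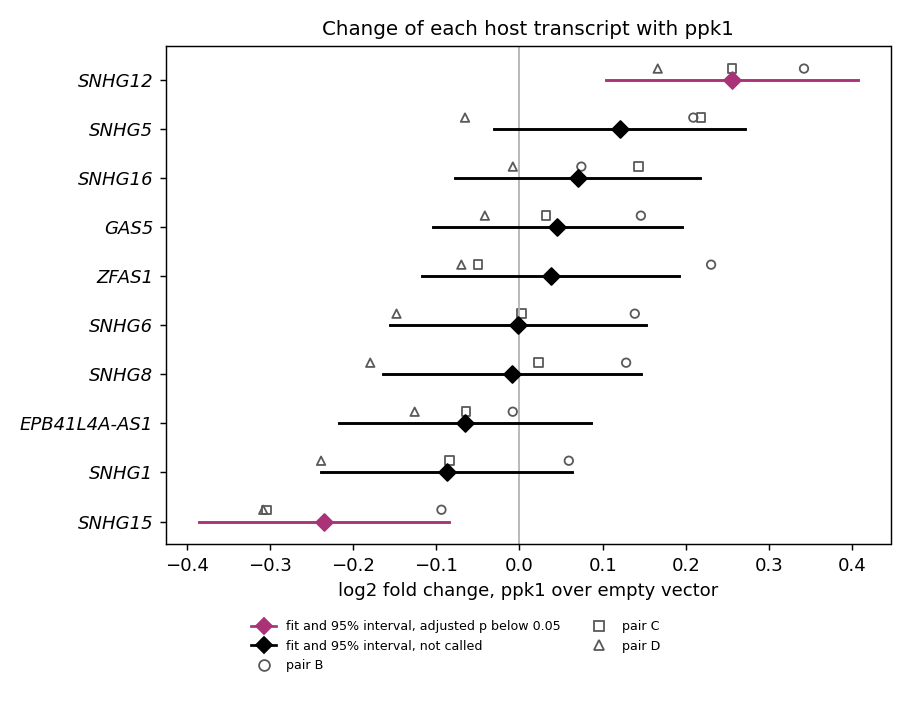
Log2 fold change of ppk1 over empty vector for each host transcript, ordered by size, as the fitted value with its 95% interval (diamond and line) and the value of each pair (open symbols). The intervals of SNHG12 and SNHG15 exclude 0, and the pair D symbol lies left of 0 for every gene but SNHG12.

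In most members, and in most tested genes, the empty vector libraries spanned a wider range than the fitted change with ppk1. Empty vector library D was the highest empty vector library for 10 of 10 members, against 40.2% of all tested genes. The ratio of the highest to the lowest empty vector library ran from 1.08 (SNHG16) to 1.39. The range of the empty vector libraries was wider than the fitted change with ppk1 in 9 of 10 members, all but SNHG12, and in 73.1% of all genes. A range of single libraries and a fitted difference between groups are unlike measures, so these counts are a description only. With ppk1, 8 of 10 members were higher in pair B, 6 of 10 in pair C and 1 of 10 in pair D, where all tested genes gave 52.0%, 52.9% and 49.9%. All 3 pairs shared one direction in 3 of 10 members and in 43.8% of all genes. The median log2 fold change of the members was 0.13 in pair B, 0.01 in pair C and -0.10 in pair D, and 0.02 in the fit, beside 0.01 for all genes. The median absolute log2 fold change was 0.07 for the members and 0.13 for all tested genes, many of which have fewer counts.

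Levels were compared between genes only per length. As CPM per kilobase of merged exon in the empty vector libraries, GAS5 was highest at 109.6 ± 11.8, followed by SNHG1 at 81.5 ± 11.8 and SNHG5 at 67.2 ± 12.5 (SD, n = 3). The lowest GAS5 library (99.7) lay above the highest SNHG1 library (94.6), whereas the ranges of SNHG1 and SNHG5 overlapped. SNHG8 (54.7 ± 10.4) and SNHG6 (53.9 ± 8.45) came next, with ranges that overlapped each other and that of SNHG5. ZFAS1 (34.9 ± 6.20) lay below them with no overlap, and its range overlapped that of SNHG15 (28.99 ± 2.85), which in turn overlapped that of SNHG16 (27.1 ± 1.06). SNHG12 (14.6 ± 1.26) and EPB41L4A-AS1 (11.2 ± 1.02) were lowest, and no ranges overlapped from SNHG16 downwards. With the median transcript length in place of merged exons, SNHG15 moved from rank 7 to 4 and SNHG8 from 4 to 7, and the first 3 and last 2 ranks were unchanged. The merged exons include retained introns, annotated in 19 of 29 transcripts of GAS5, 13 of 25 of SNHG1 and 10 of 17 of SNHG12.

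**Figure D3:**
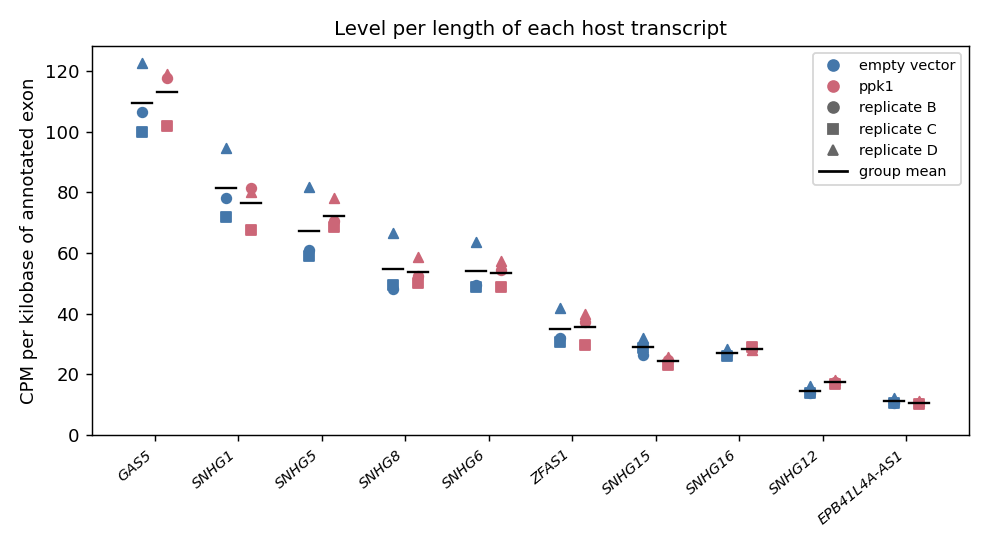
Level of each host transcript in CPM per kilobase of merged exon on a linear axis from 0, one symbol per library for the empty vector and ppk1 groups, with a line at each group mean. In the empty vector libraries GAS5 is highest at a mean of 109.6 and EPB41L4A-AS1 lowest at 11.2.

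The snoRNAs themselves were hardly counted. Of 23 snoRNA rows that lie within 9 of the hosts on the same strand, 18 lie in sequence that is also annotated as host exon, and 17 of these had no count in any library. How reads in sequence shared by a snoRNA and its host were assigned is not given in the sources used here. A row without counts therefore cannot be read as an absent snoRNA. The other 5 rows lie outside host exons and all had counts, from 24 for SNORD12C to 295 for SNORD99 over the 6 libraries. SNORD99, in SNHG12, had 37, 41 and 38 counts in empty vector libraries B, C and D and 61, 66 and 52 with ppk1. As CPM this is 0.701, 0.925 and 0.930 against 0.913, 1.38 and 1.24, so the groups overlapped, and the log2 fold change of 0.46 (SE 0.21) did not pass the test (edgeR adjusted p 0.165). Reads in such a row can come from the unspliced host as well as from the snoRNA, and the sources cannot be told apart.

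The opposite strand matters for several hosts, since the strand setting of the counting is not given in the sources used here. Tested genes that overlap a member, or start within 1000 bases of it, on the other strand are therefore given. SLC3A2, the heavy chain of an amino acid transporter, starts 188 bases from SNHG1 and points away from it without overlap. It had 274, 290 and 287 CPM in the empty vector libraries and 232, 240 and 239 CPM with ppk1. Every ppk1 library was lower, and the fitted log2 value was -0.26 (SE 0.07, adjusted p 0.0152 by edgeR, and 0.0588 without the block). SNHG1, on the other side of this start region, gave -0.09, and the difference between these genes was not tested.

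The other neighbours named here did not pass the test. ZNFX1, which shares 249 exon bases with ZFAS1, gave a log2 fold change of 0.10 (edgeR adjusted p 0.492). Near GAS5, ZBTB37 gave -0.11 (adjusted p 0.384) and GAS5-AS1 gave -0.53 (adjusted p 0.164). TRNAU1AP, which shares 8 exon bases with SNHG12, gave -0.03 (adjusted p 0.859). EPB41L4A, which shares 1659 exon bases with EPB41L4A-AS1, gave -0.04 (adjusted p 0.885). MCMDC2, overlapping SNHG6, gave 0.51 (adjusted p 0.408), and RP11-666A8.8, starting 83 bases from SNHG16, gave -0.45 (adjusted p 0.147). Sequence shared with other genes was highest in ZFAS1, where 11% of its 50-base stretches occur elsewhere, followed by SNHG8 (7.87%) and SNHG12 (6.97%), and it was 2.12% in SNHG15.

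Most members varied together across the 6 libraries. As the mean of standardised log2 CPM, their profile was -0.64, -0.81 and 1.25 SD units in empty vector libraries B, C and D, and 0.17, -0.55 and 0.59 with ppk1. Library D was thus the highest of each group and C the lowest. SNHG6 followed the mean of the other members most closely (Pearson r 0.99), then SNHG8 (0.96) and ZFAS1 (0.95), while SNHG12 (0.49), SNHG16 (0.42) and SNHG15 (0.38) followed it least. The libraries share their depth and scaling across genes, so these values over 6 libraries are descriptions.

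The 5 genes most like the member profile, among 15085 with a mean of at least 50 counts, were RPS15A (r 0.997), RPL37 (0.996), ANXA2 (0.993), RPL35A (0.993) and RPS12 (0.991), and 119 genes had r above 0.95. ANXA2 encodes a membrane-binding annexin, and the others encode ribosomal proteins. Of the 79 cytosolic ribosomal protein genes, 42 (53.2%) had r above 0.9, with a median of 0.93, against 2.13% of 19564 tested genes outside the member set, with a median of -0.02. This rests largely on library pair D, without which the share was 13.9% for ribosomal protein genes and 2.64% for all, a check chosen after seeing the data. The other noncoding hosts had a median r of 0.59, TOP mRNAs outside the ribosome 0.44, protein-coding hosts 0.34 and nonsense-mediated decay factors -0.15. Among the members, SNHG5 was most like the ribosomal protein profile (r 0.98), followed by SNHG12 (0.87) and GAS5 (0.86), and SNHG15 was least like it (0.04).

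Calls among the other hosts and in the lists that follow stand beside a background over all tested genes. By edgeR with the block, 4.04% of those genes were called higher and 5.04% lower. Of 18 further noncoding hosts 15 were tested and 0 were called, with 0 at an unadjusted p under 0.05 (edgeR) and 0 by DESeq2. Their median log2 fold change was -0.02. Of 17 protein-coding hosts outside the ribosome, 1 rose: HSPA8, a constitutive heat shock chaperone that carries C/D snoRNAs. It had 671, 798 and 964 CPM in the empty vector libraries and 896, 1167 and 1019 CPM with ppk1, so the groups overlapped, and the log2 fold change was 0.35 (SE 0.08, adjusted p 0.00306 by edgeR, and 0.173 without the block). The median of this list was 0.11.

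The mRNAs that share the TOP tract gave small positive medians. None of the 79 cytosolic ribosomal protein genes was called by edgeR or by DESeq2, with 12 at an unadjusted p under 0.05 (edgeR), and their log2 fold changes ran from -0.04 to 0.20 with a median of 0.11. Of 18 TOP mRNAs outside the ribosome, 1 rose, the elongation factor subunit gene EEF1D (log2 fold change 0.25, edgeR adjusted p 0.0240, and 0.110 without the block), and the median was 0.10. EEF1B2, EEF2, TPT1 and RACK1 stand in both this list and that of protein-coding hosts. Of 17 genes that control TOP translation, 2 rose, AKT1S1, an inhibitory subunit of mTOR complex 1 (0.30, adjusted p 0.00734), and EIF4G1, the scaffold of the cap-binding complex (0.24, adjusted p 0.0338). Neither was called without the block (adjusted p 0.111 for AKT1S1 and 0.190 for EIF4G1). The median of that list was 0.13, against 0.01 for all genes and 0.02 for the 10 noncoding hosts, and the difference between lists was not tested.

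**Figure D4:**
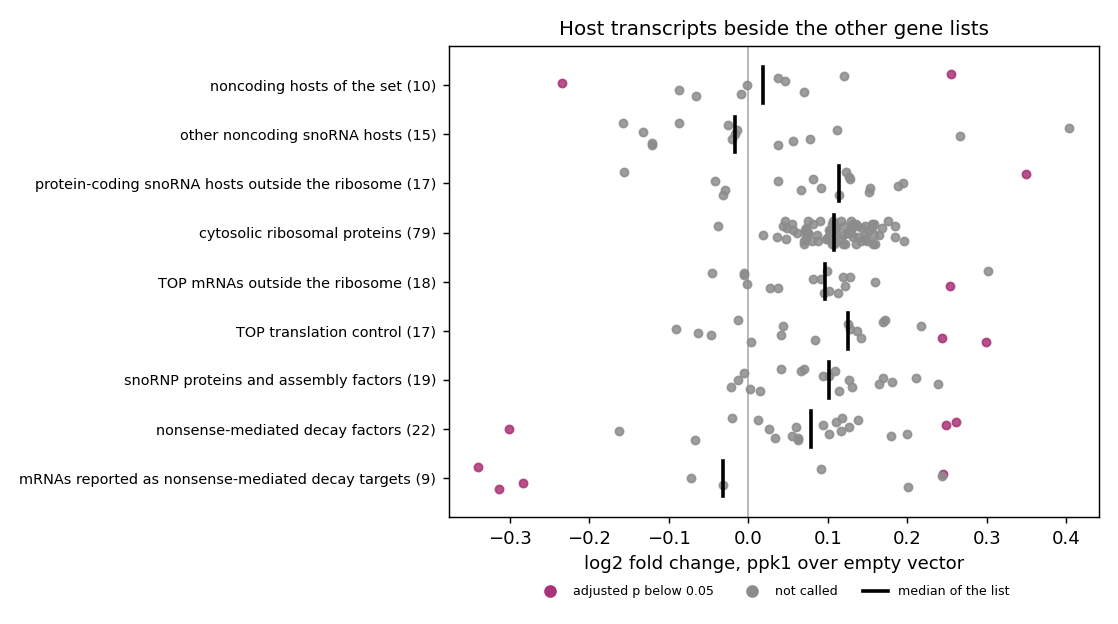
Log2 fold change of ppk1 over empty vector for each tested gene of 9 lists, the number of tested genes in parentheses, with a bar at the median of the list and called genes in colour. The 10 noncoding hosts centre at 0.02 and the 79 ribosomal protein genes at 0.11, with 1 host called in each direction.

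Genes of snoRNA assembly and of host decay were read in the same fit. Of 19 snoRNP proteins and assembly factors, 0 were called by edgeR and 0 by DESeq2, with 5 at an unadjusted p under 0.05 (edgeR) and a median of 0.10. Of 22 nonsense-mediated decay factors, 2 rose and 1 fell, with a median of 0.08. RBM8A, a core subunit of the exon junction complex, rose by a log2 fold change of 0.26 (adjusted p 0.0172), and DHX34, an RNA helicase of the pathway, by 0.25 (adjusted p 0.0300). NBAS fell by 0.30 on the log2 scale (adjusted p 0.00678). None of these 3 was called without the block.

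Of 9 mRNAs reported as nonsense-mediated decay targets, 1 rose and 3 fell, with a median of -0.03. ATF4, a transcription factor of the amino acid response, rose by a log2 fold change of 0.25 (adjusted p 0.0311). GADD45A, a growth arrest gene, fell by 0.34 (adjusted p 0.00298), the transcription factor gene ATF3 by 0.31 (adjusted p 0.00382) and CARS, a cysteinyl-tRNA synthetase gene, by 0.28 (adjusted p 0.00837) on the log2 scale. Of the 4, only CARS was called without the block (adjusted p 0.0436). The called genes of this list thus lay in both directions.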

How the data were processed

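The authors deposited 1 table of raw counts per gene (58051 Ensembl identifiers, 6 libraries). Per the submitters' processing notes, the tools were bcl2fastq 2.20, Trimmomatic, STAR, HTSeq, edgeR, DESeq, Cufflinks and Cuffdiff, with no role or order. Genome build, annotation release and strand setting are not given in the sources used here. Per the labels' protocols, RNA was poly(A)-selected and the kit directional. Annotation came from GENCODE release 29 (98.96% of identifiers, 99.96% of counts) and start sequences from RefSeq.

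The counts were fitted over all genes with edgeR 4.0.16 (glmQLFit, glmQLFTest) in R 4.3.3, with TMM scaling, filterByExpr (minimum count 10; 19574 genes tested) and the replicate letter as a block, and p-values were adjusted by Benjamini-Hochberg (0.05). Pairing is from the series' design text. Across genes, deviations of same-letter libraries correlated at 0.109 (B), 0.135 (C) and 0.0476 (D), those of different letters at -0.12 to -0.00506. SE was taken as the absolute log2 fold change over the root of the F statistic. CPM are counts per 1e+06 of the TMM-scaled total (prior count 2 for log2 CPM). The method was tested on simulated data. Alternatives used DESeq2 1.42.0, other scalings and filters, mgcv 1.9.3 offsets for GC content and length, and each letter left out.

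The members and gene lists were chosen with earlier results of these data known. Named beside the 10 members are up to 4 called genes with the smallest adjusted p per list, up to 2 opposite-strand neighbours per member and the 5 genes most like the member profile. Of the genes that these rules or the marker lists hold, some are not reported here.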

Additional observations from a re-analysis of the deposited data

How the results depend on the processing

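The count of members called higher, 1 with all pairs and the block, was 0 without the replicate block and 0 to 1 when a pair was left out. The count called lower, also 1, was 0 without the block, with no filter on low counts and with DESeq2, and 0 to 1 when a pair was left out. SNHG12 stayed past the threshold in 9 of 12 alternatives and SNHG15 in 8 of 12. The other 8 members were past it in 0 of 12 each, and the lowest adjusted p among them was 0.0527 (SNHG5). The median of the members lay between -0.07 and 0.06. Signs turned near 0: with a pair left out, log2 fold changes ran from -0.0059 (without B) to 0.068 for GAS5, from -0.061 (without B) to 0.081 for ZFAS1, from -0.074 to 0.050 (without D) for SNHG6 and from -0.080 to 0.055 (without D) for SNHG8, and SNHG6 gave 0.040 with GC and length offsets. Over all genes, 1777 were called, against 470 without the block, 754 with DESeq2, 3276 with GC and length offsets, and 406 (without pair C) to 2435 (without pair B) when a pair was left out. Of the calls 44.5% were higher, against 18.9% without the block, 31.1% with upper-quartile scaling and 60.8% with the offsets. The cause of these differences was not tested. With 3 pairs, the blocked fit has little residual freedom of its own and draws on 47.5 prior degrees of freedom (8.75 without the block). No change could be read for the 17 snoRNA rows within annotated host exons that had no count in any library.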
